A study of Yarrowia lipolytica with 11 samples.

Results

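A set of 9 genes of fatty acid synthesis, elongation and desaturation were followed across 11 RNA-seq libraries of the oleaginous yeast Yarrowia lipolytica. The 9 genes were taken by locus tag from a table of 7135 genes, all 9 were found, and all 9 were among the 6301 genes that passed the filter on low counts. They are the ATP citrate lyase subunits ACL1 (YALI0_E34793g) and ACL2 (YALI0_D24431g), the acetyl-CoA carboxylase ACC1 (YALI0_C11407g), the fatty acid synthase subunits FAS1 (YALI0_B15059g) and FAS2 (YALI0_B19382g), the desaturases OLE1 (YALI0_C05951g) and FAD2 (YALI0_B10153g), and the elongases ELO1 (YALI0_B20196g) and ELO2 (YALI0_F06754g). The count table gives genes by locus tag, without names or positions. Of all its tags 0 matched the reference gene table, and so 0 of these 9. The names are therefore those given with the locus tags when the genes were chosen. Wild-type and mutant cells grew in YPC medium, either without acid or with hexanoic acid, a short saturated fatty acid, at 1 g/L. The untreated wild type, the wild type with acid and the mutant with acid had 3 libraries each, and the untreated mutant had 2. In the mutant, per the labels, PEX10, needed for peroxisome assembly, is deleted and a plasmid overexpresses DGA1, an acyltransferase of triacylglycerol synthesis. The labels do not say how the DGA1 plasmid is driven, and deletion and plasmid occur together in every mutant library, so their parts in a strain difference cannot be told apart. Cultures started from separate colonies, and cells were collected in exponential phase.

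In oleaginous yeasts, citrate exported from mitochondria is split by ATP citrate lyase in the cytosol into acetyl-CoA and oxaloacetate. Acetyl-CoA carboxylase turns acetyl-CoA into malonyl-CoA, the committed step, and the fatty acid synthase complex, built of an alpha and a beta subunit, condenses these units into saturated acyl-CoA with NADPH as reductant. Desaturases then place double bonds in these chains and elongases lengthen them, and the products enter membrane lipids and triacylglycerol.

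Library totals ran from 9988288 to 17519857 counts, and each of the 9 genes had at least 1115 counts in every library. PEX10 (YALI0_C01023g) was lower and DGA1 (YALI0_E32769g) higher in mutant than in wild-type libraries, by 2.50-fold (log2 −1.32 ± 0.34 SE, adjusted p = 0.00963) and 17.3-fold (log2 4.11 ± 0.40, adjusted p = 1.91e-05) without acid. PEX10 was not at 0 in the libraries labelled mutant. It held 66 and 115 counts (5.01 and 7.35 CPM) without acid and 71, 123 and 72 counts (5.62, 8.04 and 5.33 CPM) with acid, against 10.7 to 20.5 CPM in the wild type. Which part of the gene was deleted is not given, so the PEX10 counts do not settle whether the deletion is complete, and the source of the remaining reads was not tested. A pair of groups held libraries that stood apart. In log2 CPM, the untreated mutant pair correlated at 0.958, and untreated wild-type replicate 2 correlated with its group at 0.966 and 0.972, against 0.975 to 0.991 for the other pairs within groups. Replicate numbers follow the sample titles. Levels are given as CPM, read counts scaled by library size and TMM, and describe the share of a library's mRNA. A change in total RNA per cell could not be told apart from a change in that share.

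Together, the 9 genes took up 1.57 ± 0.211% of all counts in the untreated wild type (SD, n = 3) and 0.548 ± 0.0984% in the wild type with hexanoic acid (n = 3). The mutant kept 1.54 ± 0.178% without acid (n = 2) and 1.20 ± 0.139% with acid (n = 3). The single libraries of the treated wild type, at 0.485 to 0.661%, all lay below the treated mutant, at 1.12 to 1.36%.

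**Figure D1:**
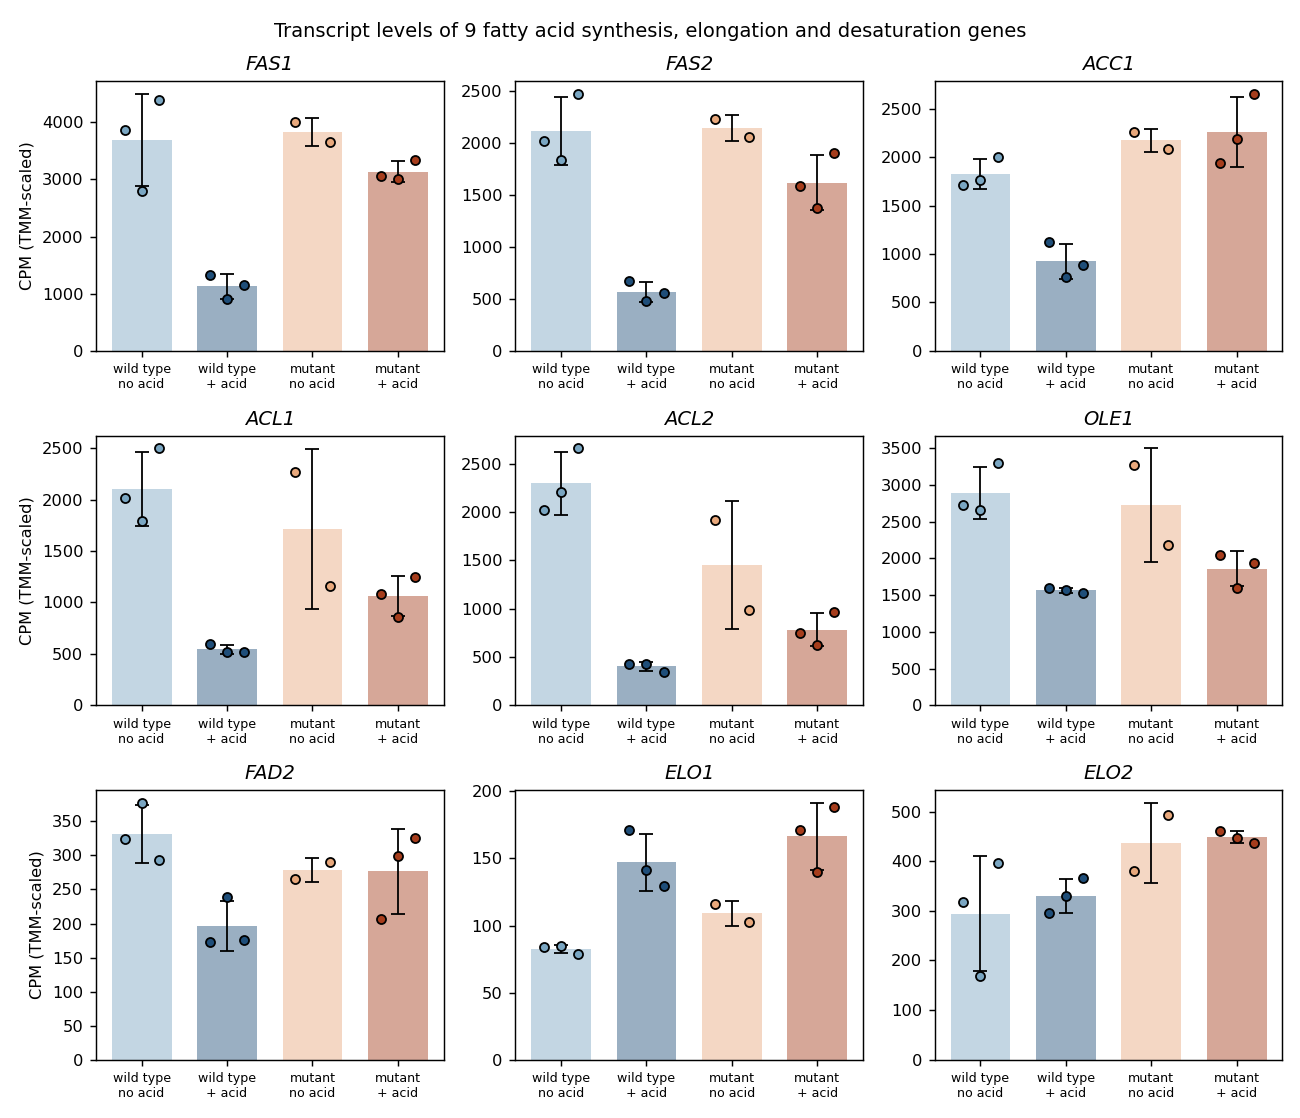
Transcript levels of the 9 genes, in TMM-scaled CPM on linear axes that start at 0 and differ between panels. Points are libraries, bars are group means and error bars are the SD (n = 3, or 2 for the untreated mutant). The treated wild type is the lowest group for ACL1, ACL2, ACC1, FAS1, FAS2, OLE1 and FAD2.

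ATP citrate lyase is the first enzyme of the route in the cytosol. ACL1 stood at 2013, 1796 and 2499 CPM in the untreated wild type and at 595, 516 and 523 CPM in the wild type with acid. In the mutant it stood at 2265 and 1162 CPM without acid and at 1084, 855 and 1243 CPM with acid. The treated wild type was below every other library, while the untreated mutant had replicate 1 within the range of the untreated wild type and replicate 2 within that of the treated mutant. ACL2, the partner subunit, stood at 2027, 2213 and 2661 CPM in the untreated wild type and at 429, 430.2 and 348 CPM with acid. Its mutant libraries held 1919.7 and 986 CPM without acid and 749.7, 627 and 968 CPM with acid. No 2 of the 4 groups overlapped for ACL2, which fell in the order untreated wild type, untreated mutant, treated mutant and treated wild type.

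Both ATP citrate lyase genes differed about equally between the untreated mutant libraries, 1.95-fold each, with replicate 1 near the untreated wild type and replicate 2 near the treated mutant. Of all genes tested, 10.1% differed at least as much as ACL1 between these libraries. OLE1 differed 1.50-fold in the same direction, while FAS1, FAS2, ACC1 and FAD2 differed by 1.08- to 1.09-fold.

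ACC1 makes malonyl-CoA for chain extension. Its levels were 1717, 1767 and 2009.7 CPM in the untreated wild type and 1123, 767 and 886 CPM in the treated wild type. The mutant held 2263 and 2091 CPM without acid and 1945, 2196 and 2658 CPM with acid. The treated wild type was again lowest, with no overlap with any other group, and the ranges of the mutant with and without acid overlapped.

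FAS1 and FAS2 encode the subunits of the fatty acid synthase complex. FAS1 was at 3867, 2802 and 4393 CPM in the untreated wild type, with replicate 2 the lowest, and at 1335, 902 and 1154 CPM in the treated wild type. In the mutant, FAS1 was at 4004 and 3662 CPM without acid and 3058, 3009.9 and 3341 CPM with acid. FAS2 followed the same order, from 2019.5, 1833 and 2468 CPM in the untreated wild type to 671, 480.0 and 554 CPM with acid. Mutant libraries held 2227 and 2049.7 CPM of FAS2 without acid and 1579.8, 1369 and 1898 CPM with acid. For both subunits the untreated wild type overlapped each mutant group, and the treated wild type lay apart below all of them.

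OLE1 places the first double bond in saturated acyl-CoA. It stood at 2726, 2653 and 3298 CPM in the untreated wild type and at 1593, 1570.5 and 1531 CPM with acid, a spread of 1.99% around the treated mean. The untreated mutant held 3271 and 2180.3 CPM and the treated mutant 2052, 1589.9 and 1934 CPM, so that the treated groups of both strains overlapped. FAD2 adds a further double bond to give linoleoyl chains. Its levels were 324, 377 and 293 CPM in the untreated wild type, 173, 239 and 176 CPM in the treated wild type, 266 and 290.5 CPM in the untreated mutant and 206, 299 and 325 CPM in the treated mutant. For FAD2 the treated wild type was lower than both untreated groups and overlapped the treated mutant.

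ELO1 and ELO2 belong to the elongase family of membrane enzymes that lengthen acyl-CoA. ELO1 was at 83.7, 84.7 and 78.7 CPM in the untreated wild type and at 171, 141 and 129.7 CPM with acid. Its mutant libraries held 116 and 102 CPM without acid and 171, 139.6 and 189 CPM with acid. All 6 acid-treated libraries were above all 5 untreated ones, the reverse of the synthesis genes in the wild type. ELO2 had the widest relative spread of the 9 genes in the untreated wild type, with 318, 169 and 396 CPM in the untreated wild type, where replicate 2 was lowest, and 296, 329 and 365 CPM in the treated wild type. In the mutant it held 380.3 and 494 CPM without acid and 461, 447 and 437 CPM with acid, all above the treated wild type.

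The first comparison measured the response of the wild type to hexanoic acid. Of the 9 genes, 7 fell, ELO1 rose, and ELO2 was not called. The estimated falls were largest for ATP citrate lyase and fatty acid synthase and smaller for ACC1 and the desaturases, and differences between genes in the size of the fall were not tested. A gene counted as called at a Benjamini-Hochberg adjusted p under 0.05 over all 6301 genes in edgeR's quasi-likelihood test. In this comparison 28% of all genes were called lower and 28.5% higher. The median log2 change was −0.98 over the 9 genes and −0.01 over all genes tested.

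ACL2 fell 5.72-fold (log2 −2.52 ± 0.28, adjusted p = 1.69e-05) and ACL1 fell 3.86-fold (log2 −1.95 ± 0.27, adjusted p = 8.34e-05). FAS2 fell 3.71-fold (log2 −1.89 ± 0.22, adjusted p = 2.05e-05) and FAS1 3.26-fold (log2 −1.71 ± 0.23, adjusted p = 6.09e-05). ACC1 fell 1.98-fold, with a 95% interval of −1.44 to −0.53 on the log2 scale (adjusted p = 0.00172). That interval overlapped those of FAS1 (−2.20 to −1.21), FAS2 (−2.37 to −1.41) and ACL1 (−2.54 to −1.36), and not that of ACL2 (−3.13 to −1.90). Of the desaturases, OLE1 fell 1.85-fold (interval −1.34 to −0.43, adjusted p = 0.00352) and FAD2 1.69-fold (interval −1.23 to −0.29, adjusted p = 0.0101). ELO1 rose 1.79-fold (log2 0.84 ± 0.16, adjusted p = 0.00107). ELO2 had a log2 difference of 0.17 with an interval of −0.42 to 0.75. For the 8 called genes the ranges of treated and untreated libraries did not overlap, and these 8 calls held without untreated wild-type replicate 2. How many of all genes separated in this way was not counted.

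The second comparison measured the same response in the mutant. Only ELO1 was called, 1.53-fold higher with acid (log2 0.61 ± 0.19, adjusted p = 0.0420), and no gene was called lower. Across all genes 7.95% were called higher and 9.7% lower. At an unadjusted p under 0.05 there were 4 of 9, and the share of all genes under that limit was not counted. DESeq2 called 2 of the 9, ELO1 and ACL2, and 1411 of all 6944 genes it tested, in either direction. ACL2 had a log2 difference of −0.89 (interval −1.54 to −0.25, adjusted p = 0.0567), ACL1 of −0.69 (−1.32 to −0.06, 0.126) and OLE1 of −0.55 (−1.06 to −0.05, 0.125). FAS1 had a log2 difference of −0.29 (interval −0.83 to 0.25) and FAS2 of −0.40 (−0.92 to 0.11), and both intervals included 0. Treated and untreated mutant libraries did not overlap for 5 of the 9 genes, FAS1 and FAS2 among them. The share of all genes that separated in this way was not counted. With only 2 untreated mutant libraries, the separation does not by itself show a fall. ACC1 (−0.45 to 0.56), FAD2 (−0.53 to 0.51) and ELO2 (−0.62 to 0.69) had intervals on both sides of 0. The medians were −0.29 over the 9 genes and −0.01 over all genes.

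This comparison depended on the untreated mutant pair. With either of the pair left out, that group is 1 library, and its fit assumes that this library varies like those of the other groups. Without its replicate 2, the one with low ATP citrate lyase levels, the log2 estimates were −1.09 for ACL1, −1.30 for ACL2, −0.82 for OLE1 and 0.53 for ELO1. Without its replicate 1 they were −0.13 for ACL1, −0.34 for ACL2, −0.23 for OLE1 and 0.70 for ELO1. The ELO1 call was lost without treated mutant replicate 1 (0.58) or 3 (0.51), in log2 units. Calls among all genes were 918 and 674 in the fits without these treated libraries, against 1112 with all libraries.

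**Figure D2:**
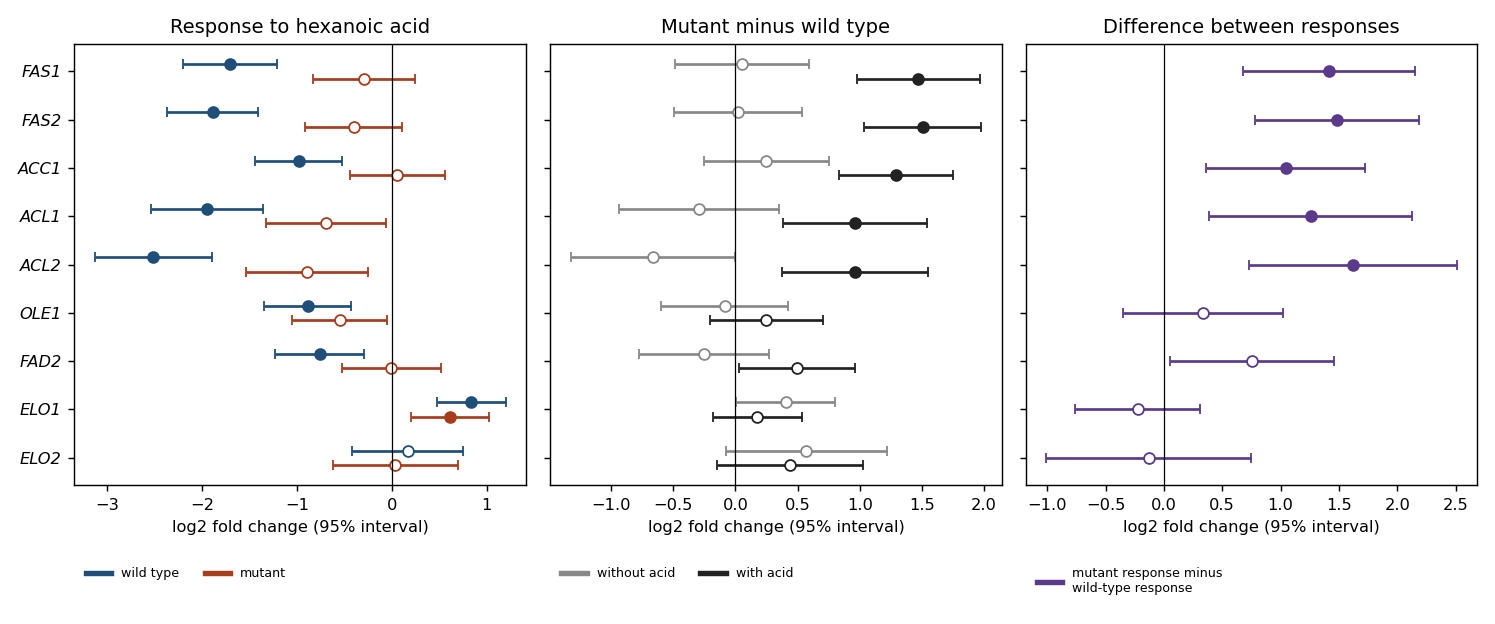
Log2 fold changes of the 9 genes with their 95% intervals from edgeR, for the acid response in each strain (left), mutant minus wild type without and with acid (middle) and the difference between both responses (right). Filled points have an adjusted p under 0.05 over all genes. ACL1, ACL2, ACC1, FAS1 and FAS2 are filled in the wild-type response, in the strain comparison with acid and in the response difference.

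The third comparison set the mutant against the wild type without acid. None of the 9 genes was called in edgeR (0 of 9, with 2 at an unadjusted p under 0.05) or in DESeq2 (0). The share of all genes under that unadjusted limit was not counted. In edgeR 22.8% of all genes were called higher and 15.3% lower in the mutant. DESeq2 called 2648 of 6944 genes in either direction. FAS1 (log2 0.06, interval −0.48 to 0.60), FAS2 (0.02, −0.49 to 0.54) and OLE1 (−0.09, −0.59 to 0.42) had estimates near 0. A missed threshold does not show that the strains were alike in these genes. ELO1 (log2 0.40, adjusted p = 0.0991) and ACL2 (−0.66, 0.104) were the genes with an unadjusted p under 0.05. Without untreated mutant replicate 1, ACL2 was at −1.22, and without replicate 2 it was at −0.26. Each of these fits has a single untreated mutant library and takes its spread from the other groups. ELO2 had the widest upper bound, 1.22, with an estimate of 0.57.

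The fourth comparison set the strains against each other with acid present. ACL1, ACL2, ACC1, FAS1 and FAS2, the genes from citrate cleavage to the synthase, were higher in the mutant, and the desaturases and elongases were not called. That made 5 of 9 higher and 0 lower, where 5% of all genes were called higher and 5.68% lower. FAS2 was 2.84-fold higher (log2 1.51 ± 0.22, adjusted p = 0.00355), FAS1 2.77-fold (1.47 ± 0.23, 0.00457) and ACC1 2.45-fold (1.29 ± 0.21, 0.00572). ACL1 was 1.95-fold (0.96 ± 0.26, 0.0403) and ACL2 1.94-fold higher (0.96 ± 0.27, 0.0435). For each of these 5 genes every treated mutant library was above every treated wild-type library, and the share of all genes that did so was not counted.

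The lyase subunits lay close to the threshold. Leaving out any 1 of the 6 treated libraries removed both, with adjusted p from 0.0556 to 0.164, while their log2 differences stayed at 0.83 to 1.10 for ACL1 and 0.78 to 1.10 for ACL2. ACC1, FAS1 and FAS2 were called in each of these fits. Of the genes not called, FAD2 had a log2 difference of 0.50 (interval 0.03 to 0.97, adjusted p = 0.157), ELO2 of 0.44 (−0.15 to 1.03), OLE1 of 0.25 (−0.21 to 0.70) and ELO1 of 0.18 (−0.18 to 0.53). The median was 0.96 over the 9 genes and 0.03 over all genes.

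The fifth comparison tested whether the acid response itself differed between strains. The same 5 genes named in the strain comparison with acid were called, all with the higher log2 change in the mutant, against 10% of all genes called in that direction and 15.5% in the other. This test uses all 4 groups and shares libraries with the comparisons above, so it is no independent evidence. The difference of log2 changes was 1.62 ± 0.41 for ACL2 (adjusted p = 0.0138), 1.49 ± 0.32 for FAS2 (0.00658), 1.42 ± 0.34 for FAS1 (0.0106), 1.26 ± 0.40 for ACL1 (0.0380) and 1.04 ± 0.31 for ACC1 (0.0301). FAD2 was at 0.75 (interval 0.05 to 1.46, adjusted p = 0.109). OLE1 was at 0.33 (−0.35 to 1.02), ELO1 at −0.23 (−0.76 to 0.31) and ELO2 at −0.13 (−1.01 to 0.75). For these 3 genes the intervals lay on both sides of 0.

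The ACC1 and ACL1 calls were lost most often when single libraries were left out. Neither was called without untreated wild-type replicate 3, treated wild-type replicate 2 or 3, or treated mutant replicate 3, which left 3 of the 9 genes. Calls among all genes in these fits were 1352, 1287, 1157 and 1198, in that order, against 1604 with all libraries. ACC1 was further lost without treated mutant replicate 2 (1.07, adjusted p = 0.0620), and ACL1 without untreated wild-type replicate 1 (1.29, 0.0541) or treated mutant replicate 1 (1.24, 0.0516). FAD2 was called without treated mutant replicate 1 (0.93, adjusted p = 0.0417). FAS1, FAS2 and ACL2 were called in each of these fits. The size of the difference moved little for ACC1 (0.91 to 1.21) and more for ACL1 (0.85 to 1.82) and ACL2 (1.22 to 2.18), whose lowest and highest values came without replicate 2 and without replicate 1 of the untreated mutant.

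Ratios between partner genes within a library do not depend on how libraries are scaled, and are given as a description, without a test. Gene lengths were not used here, so a ratio has meaning only relative to the same ratio in another library. The log2 ratio of ACL2 to ACL1 was 0.01, 0.30 and 0.09 in the untreated wild type and −0.47, −0.26 and −0.59 in the treated wild type. It was −0.24 in both untreated mutant libraries, although their levels differed 1.95-fold, and −0.53, −0.45 and −0.36 in the treated mutant. The untreated wild type lay above every other library, and the untreated mutant above both treated groups. The group mean of this ratio was 0.13 ± 0.15 without acid and −0.44 ± 0.16 with acid in the wild type (SD, n = 3 each).

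The synthase subunits showed no such separation in the wild type. FAS2 to FAS1 was −0.79 ± 0.17 in the untreated wild type, −0.99 ± 0.07 in the treated wild type, −0.84 ± 0.01 in the untreated mutant and −0.97 ± 0.16 in the treated mutant on the log2 scale. ACC1 to FAS1 was higher in the treated wild type, going from −1.17, −0.67 and −1.13 to −0.25, −0.23 and −0.38, with no overlap. In the mutant the same ratio was −0.82 and −0.81 without acid and −0.65, −0.46 and −0.33 with acid, also without overlap. ELO1 to ELO2 and FAD2 to OLE1 overlapped between treated and untreated wild type, with SDs of 0.69 and 0.34 in the untreated libraries. In the mutant, ELO1 to ELO2 was −1.72 and −2.27 without acid and −1.43, −1.68 and −1.21 with acid, so the groups lay apart by a small margin.

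**Figure D3:**
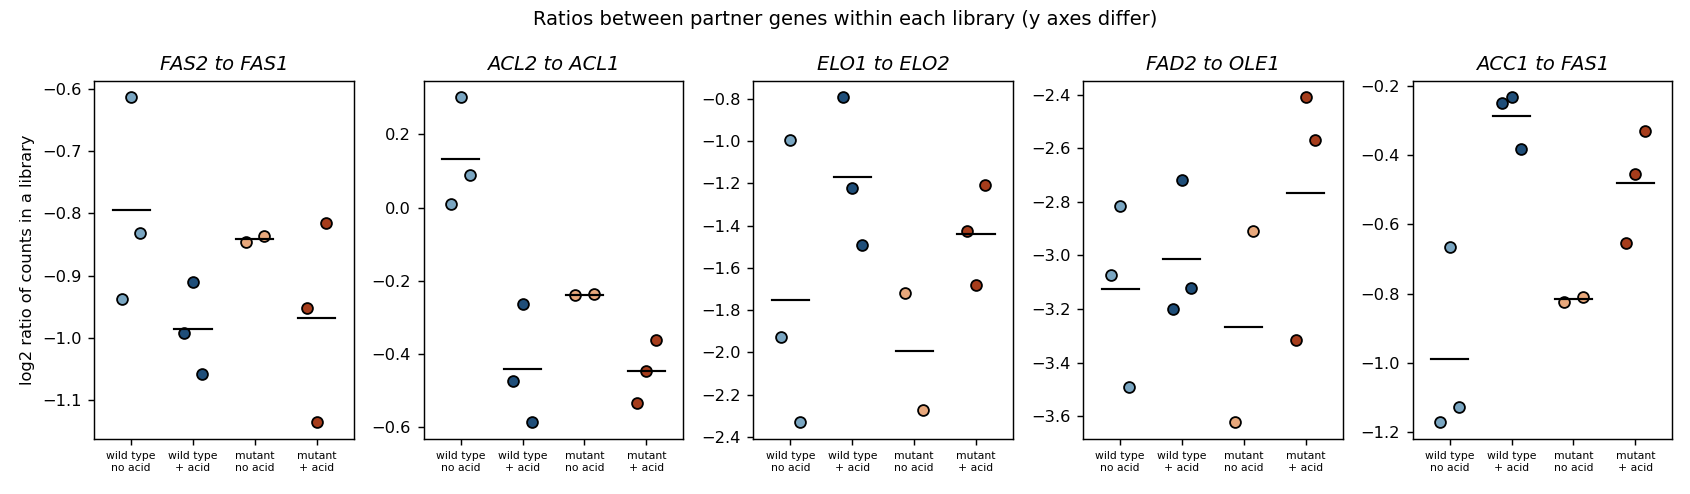
Log2 ratios of counts between partner genes within each library, with axes that differ between panels. Points are libraries and lines are group means (n = 3, or 2 for the untreated mutant). The ACL2 to ACL1 ratio of the untreated wild type, 0.01 to 0.30, lies above all other libraries, and the ACC1 to FAS1 ratio of the treated wild type, −0.38 to −0.23, lies above that of the untreated wild type.

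Deviations of log2 CPM from the group means were correlated over the 11 libraries as a description, with libraries shared by all genes. Pearson r was 0.845 for FAS1 and FAS2 and 0.830 for FAS2 and ACC1. It was 0.927 for ACL1 and ACL2, 0.945 for ACL1 and OLE1 and 0.874 for ACL2 and OLE1. Of 36 pairs, these 5 exceeded 0.8, and they join FAS1, FAS2 and ACC1 on one side and ACL1, ACL2 and OLE1 on the other. Without the untreated mutant libraries, ACL1 and OLE1 were at 0.871, ACL2 and OLE1 at 0.709 and ACL1 and ACL2 at 0.821, and FAS2 and ACL1 went from 0.680 to 0.919. FAD2 ran against the synthase within groups, at −0.557 with FAS1 and −0.387 with FAS2, although these genes all fell with acid in the wild type. It was also negative with OLE1 (−0.437), ELO2 (−0.35) and ACL1 (−0.304), and near 0 with ACC1 (−0.04), ELO1 (−0.086) and ACL2 (0).

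**Figure D4:**
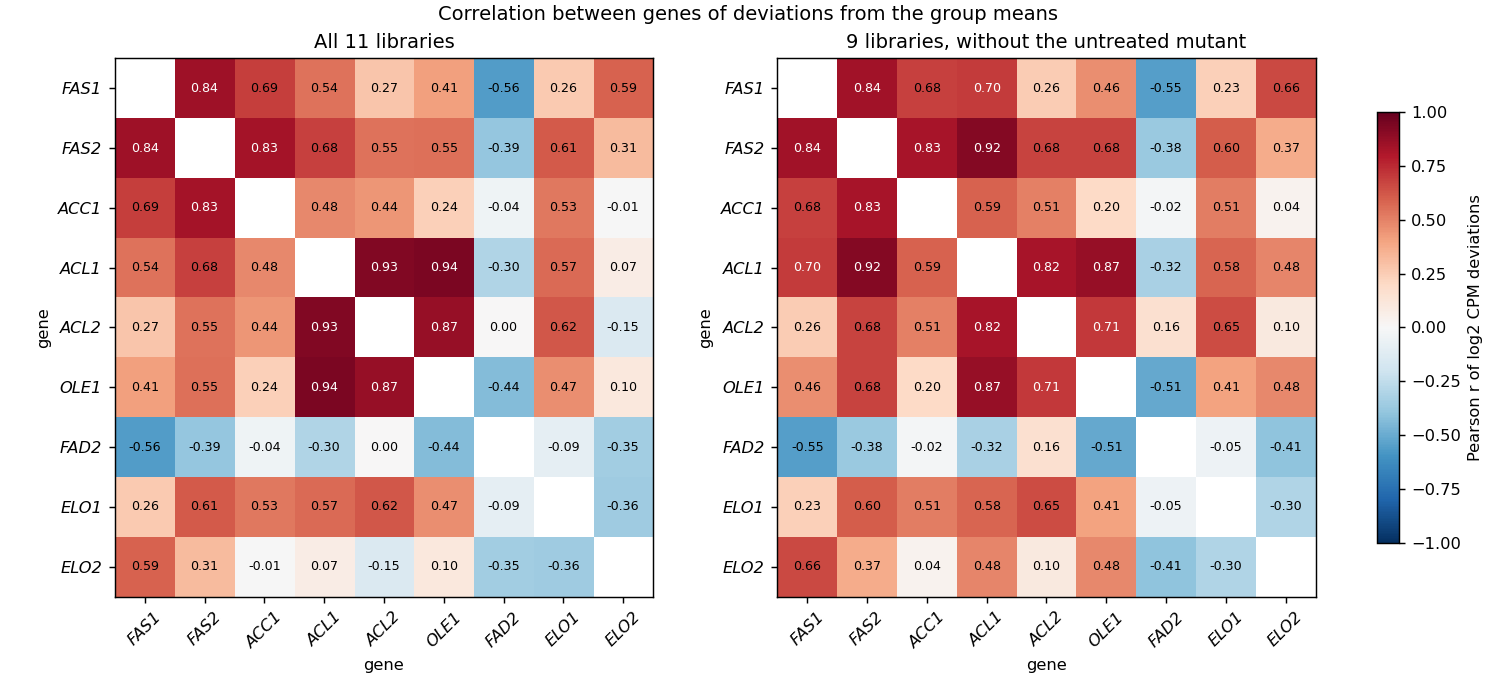
Pearson r between the 9 genes for deviations of log2 CPM from the group means, over all 11 libraries (left) and over 9 libraries without the untreated mutant (right). Colour runs from −1 (blue) to 1 (red). ACL1, ACL2 and OLE1 have r of 0.874 to 0.945 with one another on the left and FAS1, FAS2 and ACC1 of 0.691 to 0.845, while FAD2 is negative or near 0 with most genes.

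Likeness to the synthase profile was ranked over all 6301 genes by Pearson r with the mean log2 CPM of FAS1 and FAS2 over the 11 libraries, a measure that includes the differences between groups. ACC1 ranked 9 (r = 0.927), ACL1 15 (0.907), ACL2 57 (0.848), OLE1 141 (0.792) and FAD2 398 (0.691). ELO2 ranked 2546 (0.196) and ELO1 4907 (−0.450). The 2 most alike genes outside the 9 were YALI0_E34133g (0.961) and YALI0_D07194g (0.961), to which no name is given here. YALI0_E34133g stood at 93.4 to 107 CPM in the untreated wild type, 29.6 to 43.9 CPM with acid, 93.3 and 110.0 CPM in the untreated mutant and 61.8 to 72.1 CPM in the treated mutant. For OLE1 the 2 most alike outside the 9 were YALI0_B17336g (0.969) and YALI0_D01089g (0.968), and ACL1 (0.962) and ACL2 (0.956) ranked 5 and 7.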

How the data were processed

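The authors deposited raw counts of reads per gene for 11 libraries, and all values here start from these counts. Tools listed in the submitters' processing notes are HTSeq 0.11.0, STAR 2.7.9a, DESeq2 1.32.0, SAMtools 1.9 and FastQC 0.11.7, without roles. Build, annotation and strand setting were not given in the sources used here. Whether reads of overlapping, antisense or near-identical genes were kept apart is therefore not known. The deposited normalized table was not used. Libraries were prepared with a directional kit, per the labels' protocols.

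In R 4.3.3, edgeR 4.0.16 fitted 1 mean per group to all 11 libraries after filterByExpr and TMM scaling, with the quasi-likelihood F test (two-sided, robust=TRUE), 5 contrasts and Benjamini-Hochberg adjustment over all 6301 genes. The steps were tried on simulated counts in which every gene had the same dispersion and no library stood apart. That trial does not show how they perform with libraries that stand apart, as some did here. Log2 fold changes are given ± SE, the absolute value divided by the square root of F, or with 95% intervals from the test's degrees of freedom. CPM is given ± SD, and correlations used log2 CPM with 0.5 CPM added. The common biological coefficient of variation was 23.8%. Alternatives were RLE or total-count scaling, other filters, DESeq2 1.42.0, a non-robust fit, a fit to only the groups compared, replicate blocks and leaving out each library. The smallest chi-square per degree of freedom between libraries of a group was 39.5, so each counted as 1 replicate.

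The 9 genes were chosen with earlier results of these data known. Other genes are named as the 2 altered in the mutant and as the 2 most alike to the synthase and to OLE1. Lists of 22 further pathway genes were also planned, and their values are left out, because nothing in the files or the reference table ties those locus tags to a name or role.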

Additional observations from a re-analysis of the deposited data

Results flagged for a closer look

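The acid response of 5 of the 9 genes differed between strains by the test of the difference itself, as mutant log2 change minus wild-type log2 change (edgeR, adjusted over 6301 genes). It was 1.42 for FAS1, 1.49 for FAS2, 1.04 for ACC1, 1.26 for ACL1 and 1.62 for ACL2. In the wild type every treated library of these 5 genes was below every untreated one. In the mutant this held for FAS1, FAS2 and ACL2 and not for ACC1 and ACL1. The share of all genes with such a separation was not counted.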

How the results depend on the processing

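Of 693 recalculated log2 changes of the 9 genes, 631 kept direction and side of the threshold, 39 lost the call, 6 gained it and 17 turned sign. All 17 were among results that were not called, and of 19 called results 14 were lost in no setting. The wild-type acid response had 8 called genes in every setting. In the mutant the count of 1 became 0 with total-count scaling, either replicate block or only the groups compared, and 2 with DESeq2. Leaving out a treated mutant library gave 0 or 1, with 609 to 918 calls among all genes. Calls among all genes went from 1112 to 986 with total-count scaling and to 739 (title) and 747 (description) with the blocks. They were 659 with only the groups compared and 1411 with DESeq2. Leaving out 1 library from a group of 3, the strain count was 0 without acid and 3 each time with acid. For the response difference it was 3 to 5, with 1114 to 1631 calls among all genes against 1604 with all libraries. Calls among all genes moved as well. Between strains with acid they were 134 without treated wild-type replicate 3 and 768 without replicate 1, against 673 with all libraries. With the replicate blocks they were 391 (title) and 409 (description), and for the response difference 1296 (title) and 1332 (description). The replicate block by description number left 3 with acid (without ACL1 and ACL2) and 3 for the response difference (without ACC1 and ACL1), and by title number 4 (without ACL2) and 4 (without ACC1). Same-number libraries correlated at −0.512 to 0.409 in their deviations, with 2 of 15 pairs over 0.1. Of 11 libraries, 0 (title) or 1 (description) had its own number as the closest match in every other group. A number absent from the untreated mutant could not meet this. Deviations within such small groups are tied to one another, so these values do not settle whether same-number cultures were handled together. A fit that leaves out 1 untreated mutant library assumes that the other varies like the remaining groups. The cause of these changes was not tested.

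Among uncalled results that turned sign, in log2, the block gave −0.062 for ELO2 (title) and 0.071 for FAD2 (description) for acid in the mutant. Leaving out single libraries gave, for acid in the mutant, −0.072 to 0.15 for ACC1, −0.14 to 0.16 for FAD2 and −0.14 to 0.24 for ELO2. ELO2 ran from −0.11 to 0.44 for acid in the wild type and from −0.40 to 0.15 for the response difference. Between strains without acid, FAS1 ran from −0.11 to 0.20, FAS2 from −0.070 to 0.15, ACL1 from −0.86 to 0.11 and OLE1 from −0.41 to 0.18. Total-count scaling moved the median of all genes from −0.01 to −0.11 for acid in the wild type and from 0.03 to 0.16 between strains with acid, and left 8 and 5 genes called. Precision is limited by 2 or 3 libraries per group.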
